A study of Mus musculus with 16 samples.

Results

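Purinergic signalling was examined through 10 genes taken by symbol: the adenosine receptors Adora1, Adora2a and Adora2b, the ATP-gated channels P2rx4 and P2rx7, the nucleotide receptors P2ry1 and P2ry14, the surface enzymes Entpd1 and Nt5e, and adenosine kinase, Adk. They were 10 of the 53779 genes in the deposited table, and held 63 of its 135202 isoforms. The rule took rows by symbol alone and used no measured value. The 10 genes themselves were chosen with earlier results of these data known. Primary neuronal cultures (PNCs) from the cortex of wild type embryonic mice were pretreated at day in vitro 8 with 10 µM tianeptine (TIA), an atypical antidepressant, or with vehicle (VEH). After 24 h they underwent 3 h of oxygen-glucose deprivation (OGD), a culture model of stroke, or a sham procedure, and RNA was taken after 6 h of reoxygenation. The 4 groups, CONTROL-VEH (cultures 1 to 4), CONTROL-TIA (5 to 8), OGD-VEH (9 to 12) and OGD-TIA (13 to 16), had 4 cultures each, and the methods call them biological replicates. The comparisons asked what OGD did to these transcripts, what TIA did without OGD, and whether the OGD response differed after TIA.

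Sequencing depth was estimated from the deposited FPKM at 20.5 to 26.2 M reads a culture. The estimate carries the scaling of those values, and the paper gives a lower range of aligned reads. It and the estimated reads per gene are therefore approximate. OGD-VEH cultures 10 to 12 and OGD-TIA culture 16 stood apart from the others by low neuron markers, and OGD-VEH culture 9 lay near the controls. The OGD differences are therefore also given without these 4 cultures, a fit chosen after seeing the data. OGD-VEH is then culture 9 alone and is assumed to vary like the other groups. The 4 cultures also had the lowest Adora1 and the highest P2ry1, so smaller differences without them follow from the choice. These values describe how far a difference rested on the 4 cultures and test nothing. Only its size and SE are given there, and no p-value.

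Injured cells release ATP, which acts on P2X channels and P2Y receptors before it is degraded. CD39, the product of Entpd1, takes ATP and ADP down to AMP, and CD73, the product of Nt5e, turns AMP into adenosine. Adenosine then acts on its own receptors and is cleared into cells, where adenosine kinase phosphorylates it back to AMP. In the ischemic brain adenosine is known as a brake on excitatory transmission through the A1 receptor.

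Levels are given as FPKM (fragments scaled to transcript length and to the number of mapped reads) summed over the isoforms of a gene. FPKM is scaled by length, but short isoform models add to the sum of a gene, so the order below is one of sums and not of full-length transcripts. In the CONTROL-VEH cultures the order was Adk (48.1 ± 8.60 FPKM, mean ± SD, n = 4), Adora1 (28.9 ± 1.80), P2rx4 (9.15 ± 1.88), Entpd1 (2.85 ± 0.541), P2ry1 (1.68 ± 0.635), Adora2a (1.30 ± 0.389), Adora2b (0.513 ± 0.0763), P2rx7 (0.314 ± 0.234) and Nt5e (0.267 ± 0.0413), with P2ry14 listed at 0. The ranges of neighbours overlapped between Entpd1 and P2ry1, P2ry1 and Adora2a, Adora2b and P2rx7, and P2rx7 and Nt5e, so those pairs were not separated. The full-length isoforms Adk-201 and Adk-207 averaged 8.15 and 7.28 FPKM in CONTROL-VEH, both under the Adora1 sum, and in CONTROL-TIA the mean sum of Adora1 (29.4) was above that of Adk (29.0). Estimated reads per culture had a median of 2817 for Adora1 and 835 for Adk, of 228 for P2rx4, 130 for Entpd1 and 128 for P2ry1, and of 58.4 for Adora2a, 48.5 for P2rx7, 23.5 for Nt5e, 19.3 for Adora2b and 0 for P2ry14. The low levels of the last 5 genes therefore rested on few reads.

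**Figure D1:**
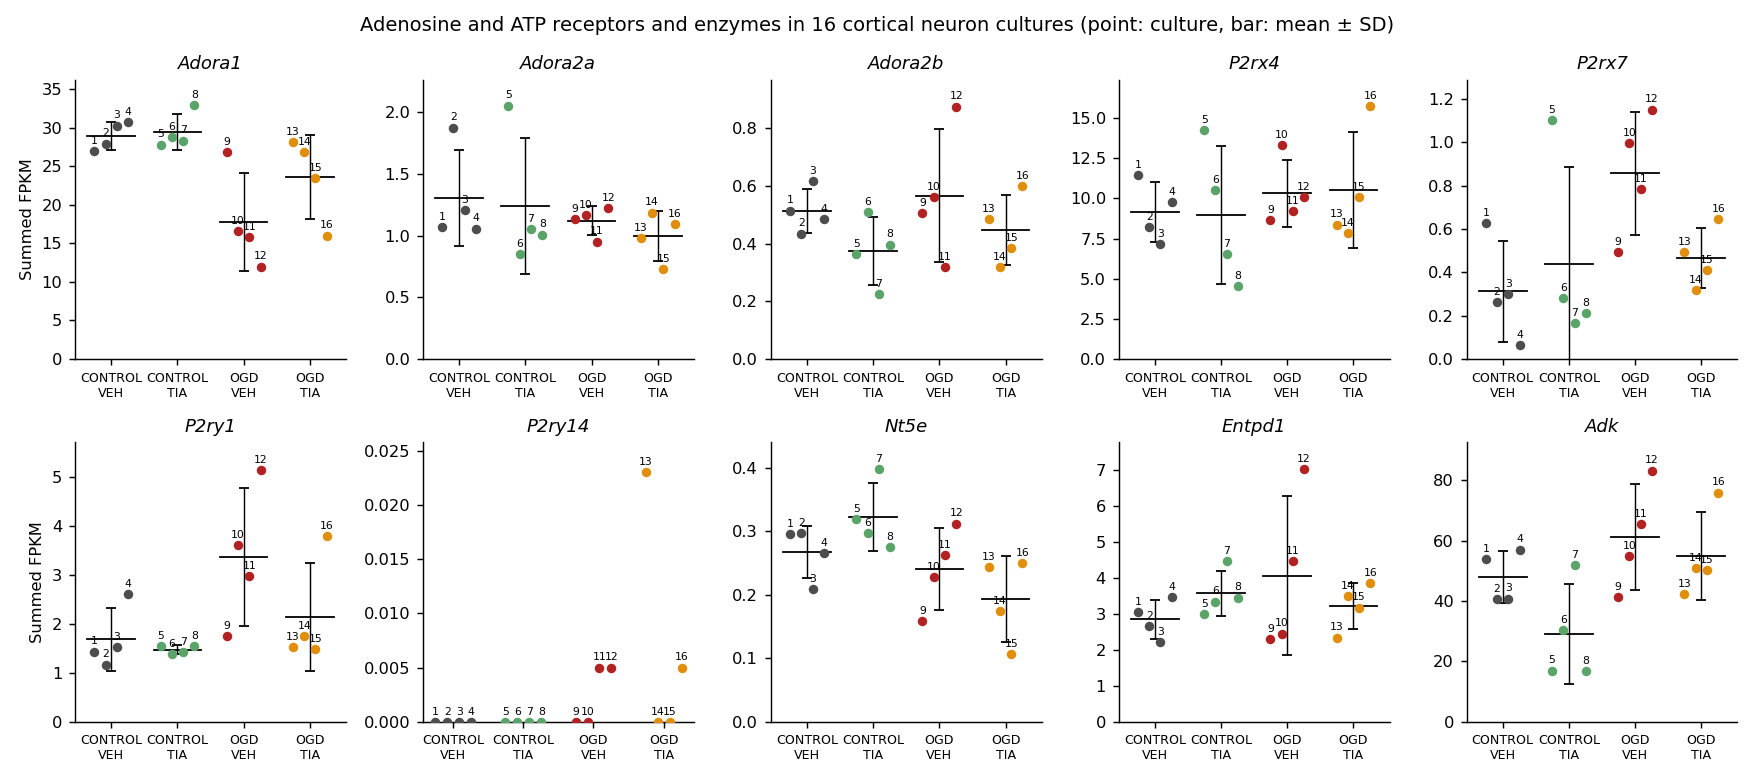
Summed FPKM (vertical axes, from 0) of the 10 genes in each of the 16 cultures, by group. Each point is 1 culture with its number, the horizontal line is the group mean and the bar its SD (cut at 0, and not drawn for P2ry14); OGD-VEH cultures 10 to 12 and OGD-TIA culture 16 sit apart from the controls for Adora1 and P2ry1.

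A gene was called when its adjusted p was at most 0.05 and its log2 fold change at least 1 or at most -1, the thresholds of the study, in limma with Benjamini-Hochberg adjustment over all genes. None of the 10 genes was called in any comparison. For OGD without TIA (OGD-VEH against CONTROL-VEH), 0 of the 8 that passed the filter on low levels were called against 4.08% of all genes (8.44% at any fold change), and 3 of 8 had an unadjusted p under 0.05 against 35% of all genes. Between OGD-TIA and CONTROL-TIA, 0 of 6 were called against 0% of all genes at either rule, and 1 of 6 had an unadjusted p under 0.05 against 19.5%. The study, with DESeq2, reported differentially expressed genes in this comparison at the same thresholds, so this 0% describes the limma fit alone. TIA alone, CONTROL-TIA against CONTROL-VEH, gave 0 of 6 called (0% of all genes) and 1 of 6 with an unadjusted p under 0.05 (3.85%). OGD-TIA against OGD-VEH gave 0 of 8 called (0%) and 0 of 8 with an unadjusted p under 0.05 (7.9%). The interaction of OGD and TIA gave 0 of 7 called (0%) and 0 of 7 with an unadjusted p under 0.05 (6.06%). With the OGD effect averaged over both drug arms, which uses all 16 cultures, 0 of 7 were called against 4.79%, and 3 of 7 had an adjusted p of at most 0.05 at any fold change against 32.5% of all genes (4 of 7 at an unadjusted p under 0.05, against 44.4%). Those 3 were Adora1, lower after OGD (13.7% of all genes were lower), and P2ry1 and Adk, higher (18.8%). With only 6 to 8 of the 10 genes tested in a comparison, these shares are too coarse to set against the background. Nothing is read from them about the 10 genes as a group. In the 12 cultures left without OGD-VEH 10 to 12 and OGD-TIA 16, the averaged differences were -0.14 for Adora1, 0.11 for P2ry1 and 0.34 for Adk. P2rx7 passed the filter only in the comparisons that held the OGD-VEH cultures.

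**Figure D2:**
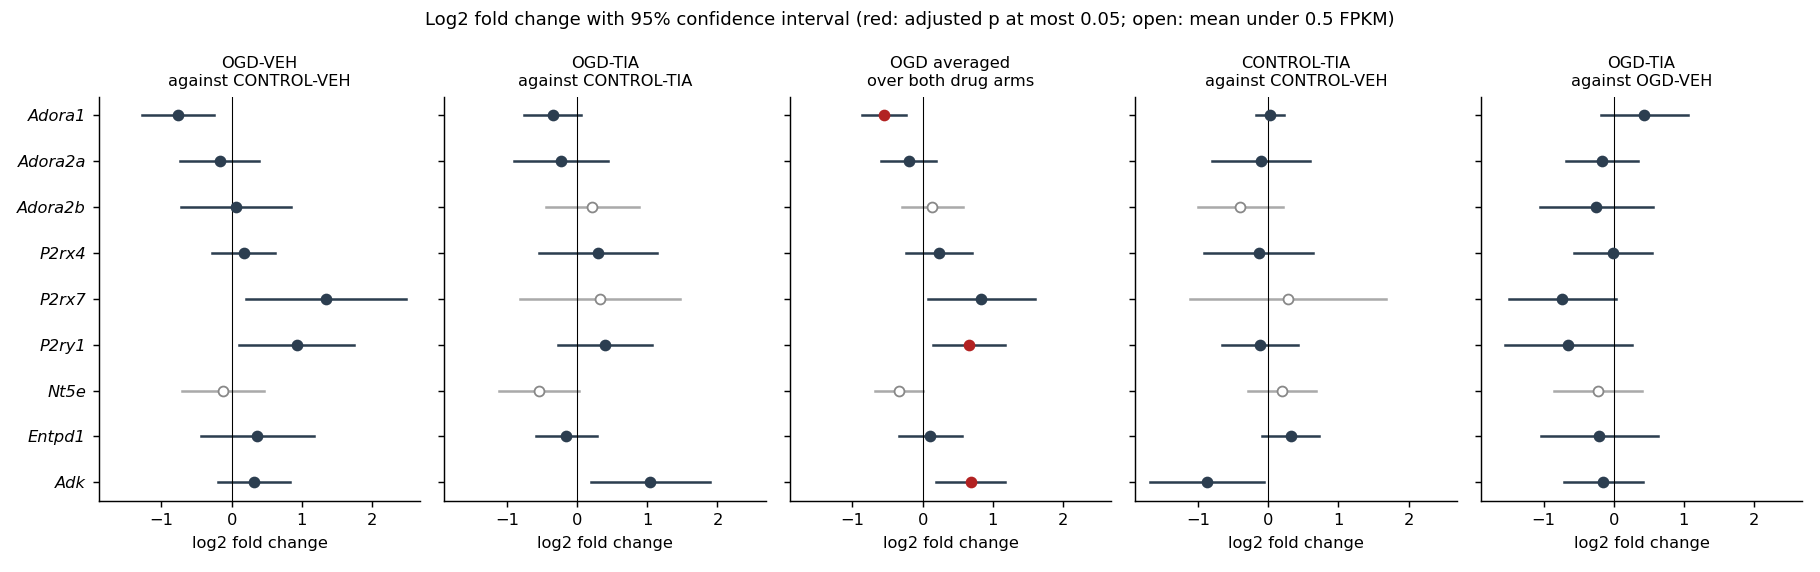
Log2 fold change (horizontal axes) of the 9 genes with reads in the controls, with its 95% confidence interval from limma, in 5 comparisons. Red marks an adjusted p of at most 0.05, reached by Adora1, P2ry1 and Adk in the averaged OGD comparison, and open points mark genes under the filter of 0.5 FPKM in that comparison.

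Adora1 encodes the A1 receptor, the high-affinity adenosine receptor that lowers transmitter release from neurons. The gene lies on the minus strand of chr1:134199223-134235431 (GRCm38). Its summed FPKM was 26.9, 27.9, 30.2 and 30.7 in CONTROL-VEH cultures 1 to 4 and 27.8, 28.8, 28.3 and 32.9 in CONTROL-TIA cultures 5 to 8. It was 26.9, 16.6, 15.8 and 11.98 in OGD-VEH cultures 9 to 12 and 28.1, 26.9, 23.5 and 15.99 in OGD-TIA cultures 13 to 16. All 4 OGD-VEH cultures were below all CONTROL-VEH cultures, although culture 9 was just under the lowest of them, and culture 16 was at the level of cultures 10 and 11. The log2 fold change between OGD-VEH and CONTROL-VEH was -0.76 (SE 0.22, 95% interval -1.27 to -0.25), with an adjusted p of 0.0614 in limma and an exact permutation p of 0.0286, two-sided, the smallest that 4 against 4 cultures allow. Groups that do not overlap were found for 22.7% of all genes in this comparison, and in this direction for 9.94%. Over the 8 fits that each left out 1 culture the log2 fold change was -0.98 to -0.59, with a limma adjusted p of 0.00466 to 0.142. The largest size came without culture 9, the OGD-VEH culture nearest the controls, and follows from leaving that culture out. With culture 9 as the sole OGD-VEH culture the log2 fold change was -0.11 (SE 0.16).

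With TIA the OGD difference of Adora1 was -0.35 on the log2 scale (SE 0.18, adjusted p 0.313), and 3 of 4 OGD-TIA cultures lay under the whole CONTROL-TIA range (exact permutation p = 0.0571). Averaged over both arms, Adora1 was lower after OGD by a log2 fold change of -0.55 (SE 0.15, adjusted p 0.0133, limma), a ratio of 0.681. This adjusted p stayed between 9.4e-04 and 0.0286 when each culture was left out in turn. Without OGD-VEH 10 to 12 and OGD-TIA 16 together the log2 fold change was -0.14 (SE 0.08). The interaction, which tests whether the OGD difference itself changed with TIA, was 0.41 (SE 0.30, 95% interval -0.22 to 1.05, adjusted p 0.724), so no difference between the arms was shown. TIA without OGD gave 0.02 on the log2 scale (95% interval -0.18 to 0.22).

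Of its 4 isoforms, Adora1-202 held 53.3% of the summed FPKM, Adora1-203 22.4% and Adora1-201 17.8%, and these 3 carry the same annotated coding length of 326 codons. Adora1-201 had a log2 fold change of -0.74 (SE 0.15, adjusted p 0.0144), Adora1-202 of -0.54 (adjusted p 0.178) and Adora1-203 of -0.77 (adjusted p 0.247) after OGD, averaged over both arms. None of the isoforms of the 10 genes was called in the isoform fit, in which 1.97% of all isoforms were called and 8.64% had an adjusted p of at most 0.05 at any fold change. The split of reads among isoforms that share most of their exons is uncertain.

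Neuron marker transcripts moved with Adora1. The summed FPKM of 12 neuron markers was 2878 to 3471 in CONTROL-VEH, 2907 to 3077 in CONTROL-TIA, 1281 to 2575 in OGD-VEH and 1715 to 2836 in OGD-TIA, and 9 of the 12 had an adjusted p of at most 0.05, all lower, in the averaged OGD comparison, in which 13.7% of all genes were lower. Their median log2 fold change was -0.64, against 0.08 for all genes and -0.55 for Adora1. Without the 4 cultures that stood apart by these same markers the median was -0.23, a smaller size that the choice of cultures fixed in advance. Over the 16 cultures the genes whose log2 levels were most like those of Adora1, among 12512 protein-coding genes, were Syt1 (Pearson r 0.99), Cnrip1 (0.98) and Prepl (0.98), given as a description of cultures that share groups. In bulk RNA, fewer neurons and less transcript per neuron cannot be told apart.

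Sequence before the start of Adora1 is shown because Adora1 and P2ry1 moved in opposite directions in the same cultures. RefSeq windows of 250 bases before a start (GRCm38.p6) were at hand for 9 of the 10 genes, 16 windows in all. A set of 5 short motifs were searched on both strands: the hypoxia-response cores ACGTG and GCGTG, the AP-1 site TGANTCA, the cyclic AMP response core TGACG and the GC box GGGCGG. Of 32851 windows of all genes, 16.6% held ACGTG, 28.2% GCGTG, 6.7% TGANTCA, 17.8% TGACG and 32.7% GGGCGG, and ACGTG and TGACG can overlap. The window of the outer Adora1 start, chr1:134235458-134235707 on the minus strand, had 1 ACGTG, 1 TGANTCA and 3 GGGCGG. Capitals mark ACGTG or GCGTG on either strand, here and in the windows shown for P2ry1 and Adk. A match only says that these letters are there.
Adora1: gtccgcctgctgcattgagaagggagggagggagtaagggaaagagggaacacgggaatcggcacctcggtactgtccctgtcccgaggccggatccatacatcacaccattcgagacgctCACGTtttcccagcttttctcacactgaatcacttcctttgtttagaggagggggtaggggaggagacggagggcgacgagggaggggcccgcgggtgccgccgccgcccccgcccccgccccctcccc

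The other adenosine receptors were low. Adora2a (chr10:75316877-75334784, plus strand), the adenosine receptor that raises cyclic AMP and is known best from striatal neurons, was at 1.07, 1.88, 1.21 and 1.058 FPKM in CONTROL-VEH and 2.06, 0.850, 1.05 and 1.01 in CONTROL-TIA. It was at 1.14, 1.17, 0.952 and 1.22 FPKM in OGD-VEH and 0.981, 1.19, 0.726 and 1.09 in OGD-TIA. The 4 groups overlapped, with 1 high culture in each control group. Its log2 fold change after OGD averaged over both arms was -0.20 (95% interval -0.60 to 0.20, adjusted p 0.424).

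Adora2b, the low-affinity A2B receptor that responds to high adenosine (chr11:62248984-62266453, plus strand), was at 0.515, 0.435, 0.616 and 0.485 FPKM in CONTROL-VEH and at 0.365, 0.510, 0.226 and 0.397 in CONTROL-TIA. After OGD it was at 0.506, 0.563, 0.320 and 0.876 FPKM in OGD-VEH and at 0.485, 0.318, 0.386 and 0.599 in OGD-TIA. The groups overlapped again. Its averaged OGD difference of 0.14 on the log2 scale had a 95% interval of -0.30 to 0.58, and its values rested on a median of 19.3 reads a culture.

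P2rx4 and P2rx7 encode ATP-gated cation channels, P2rx7 being the one that needs high ATP and drives inflammasome activation in immune cells. They are neighbours on the plus strand of chromosome 5, P2rx7 at chr5:122643911-122691432 and P2rx4 at chr5:122707544-122729738. P2rx4 was at 11.5, 8.21, 7.15 and 9.78 FPKM in CONTROL-VEH, 14.2, 10.52, 6.54 and 4.56 in CONTROL-TIA, 8.67, 13.3, 9.23 and 10.1 in OGD-VEH, and 8.37, 7.85, 10.1 and 15.7 in OGD-TIA. All groups overlapped, and the averaged OGD difference was 0.24 (95% interval -0.23 to 0.71, adjusted p 0.423). Short noncoding models made up much of this sum: P2rx4-203, of 513 bases, held 29.4% and P2rx4-205, of 476 bases, 24.6%, while P2rx4-202, with 361 codons, held 26.1%. The coding P2rx4-202 ranged only from 1.57 to 3.47 FPKM over the 16 cultures.

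P2rx7 was at 0.628, 0.262, 0.299 and 0.065 FPKM in CONTROL-VEH, 1.10, 0.281, 0.165 and 0.211 in CONTROL-TIA, 0.494, 0.997, 0.786 and 1.15 in OGD-VEH, and 0.494, 0.317, 0.410 and 0.645 in OGD-TIA. In OGD-VEH 3 of 4 cultures were above all CONTROL-VEH cultures, and culture 5 of CONTROL-TIA was as high as these. The log2 fold change between OGD-VEH and CONTROL-VEH was 1.34 (SE 0.50, 95% interval 0.21 to 2.48, adjusted p 0.098, limma, exact permutation p = 0.0571). CONTROL-VEH averaged 0.314 FPKM and OGD-VEH 0.857, so P2rx7 passed the minimum of 0.5 only through the group where it was high, and this value is a description. With culture 9 as the sole OGD-VEH culture it was 0.71 (SE 0.87). Averaged over both arms it was 0.84 (SE 0.36, adjusted p 0.085). Over the 16 fits that each left out 1 culture the averaged value was 0.65 to 1.08, with a limma adjusted p of 0.0361 to 0.239. It was 1.08 with 0.0361 without CONTROL-TIA culture 5 (read without the filter, which P2rx7 then missed), and 1.004 with 0.0456 without CONTROL-VEH culture 1. These were the cultures with the highest P2rx7 of their groups, so larger values without them follow from leaving them out. Without OGD-VEH 10 to 12 and OGD-TIA 16 the averaged value was 0.45 (SE 0.53). OGD-TIA against OGD-VEH gave -0.74 (95% interval -1.50 to 0.03, adjusted p 0.551), and the interaction -1.02 (95% interval -2.54 to 0.51, adjusted p 0.723). One isoform, P2rx7-203, with 595 codons, held 88.9% of the sum.

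P2rx7 is known from microglia, so their markers were read beside it. Of 15 microglia markers, 3 reached a mean of 0.5 FPKM in each group, Cd68 and Aif1 among them. Cd68, a lysosomal protein of phagocytes, averaged 2.53 FPKM in CONTROL-VEH and 12.1 in OGD-VEH and was called higher (log2 fold change 2.34, SE 0.33, adjusted p 0.0282, limma). The other 12 stayed at or under 0.346 FPKM in every culture, with Cx3cr1 at most at 0.020, Tmem119 at 0.095, Csf1r at 0.113 and Trem2 at 0.114. Among these, P2ry12 averaged 0.072 FPKM in CONTROL-VEH and 0.234 in OGD-VEH. The summed level of the 15 was 11.6 to 14.9 FPKM in CONTROL-VEH, 12.8 to 14.9 in CONTROL-TIA, 17.7 to 24.4 in OGD-VEH and 11.3 to 19.2 in OGD-TIA. The part of microglia in the P2rx7 values was not tested.

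P2ry1 encodes the ADP receptor P2Y1, which couples to calcium release (chr3:61002795-61008982, plus strand). Its levels were 1.43, 1.17, 1.52 and 2.61 FPKM in CONTROL-VEH and 1.55, 1.38, 1.43 and 1.55 in CONTROL-TIA. They were 1.75, 3.61, 2.98 and 5.14 FPKM in OGD-VEH and 1.53, 1.75, 1.48 and 3.79 in OGD-TIA. Cultures 10 to 12 and 16 were above every control culture, while culture 9 and cultures 13 to 15 were below CONTROL-VEH culture 4. Between OGD-VEH and CONTROL-VEH the log2 fold change was 0.93 (SE 0.36, 95% interval 0.11 to 1.74, adjusted p 0.108), with an exact permutation p of 0.0571. Over the 8 fits that each left out 1 culture the log2 fold change was 0.70 to 1.20, with a limma adjusted p of 0.0256 to 0.23. The largest size, which passed both thresholds, came without culture 9, the OGD-VEH culture nearest the controls, and follows from leaving that culture out. With culture 9 as the sole OGD-VEH culture the log2 fold change was 0.12 (SE 0.47).

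For P2ry1, OGD-TIA against CONTROL-TIA gave 0.40 (SE 0.29, adjusted p 0.463) and OGD-TIA against OGD-VEH -0.65 (95% interval -1.55 to 0.26, adjusted p 0.552). The averaged OGD difference was 0.66 (SE 0.24, adjusted p 0.046, limma), a ratio of 1.58, and was positive in each of the 16 fits that left out 1 culture (0.51 to 0.80). Its adjusted p stayed under the threshold only when CONTROL-VEH 4, OGD-VEH 9, OGD-TIA 13 or OGD-TIA 15 was left out. In the fits without cultures 1, 2, 3, 5, 6, 7, 8, 10, 11, 12, 14 or 16 it was 0.057 to 0.0922. Without OGD-VEH 10 to 12 and OGD-TIA 16 together the difference was 0.11 (SE 0.20). The interaction was -0.53 (95% interval -1.55 to 0.49, adjusted p 0.751). All 3 isoforms share 373 annotated codons, and P2ry1-201, with 50.0% of the sum, had an averaged OGD difference of 0.85 (SE 0.25, adjusted p 0.0525).

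The summed levels of astrocyte and oligodendrocyte lineage markers were high in the cultures with high P2ry1, but single markers differed. The summed FPKM of 11 astrocyte markers was 813 to 1690 in CONTROL-VEH, 705 to 934 in CONTROL-TIA, 1089 to 2734 in OGD-VEH and 825 to 2076 in OGD-TIA, and CONTROL-VEH culture 4, the control with the highest P2ry1, had the highest astrocyte sum of the controls. For 10 oligodendrocyte lineage markers the sum was 186 to 223, 170 to 204, 255 to 707 and 236 to 460 FPKM in the same order. In the averaged OGD comparison 3 of 10 tested astrocyte markers were higher and none lower, and 5 of 8 tested oligodendrocyte lineage markers were higher and 1 lower at an adjusted p of at most 0.05, where 18.8% of all genes were higher and 13.7% lower. In OGD-VEH against CONTROL-VEH 0 of 10 tested astrocyte markers had an adjusted p of at most 0.05 in limma. Of 8 tested oligodendrocyte lineage markers 4 were higher and 1 lower, where 8.44% of all genes passed. Some markers fell: Slc1a2 averaged 51.8 FPKM in CONTROL-VEH and 38.3 in OGD-VEH, and Mbp 7.18 and 3.81. The averaged median log2 fold changes of the 2 lists were 0.62 and 0.77. Without the 4 cultures that stood apart they were 0.24 and 0.25. The genes most like P2ry1 over the 16 cultures were Fkbp9 (Pearson r 0.99), Tshz1 (0.99) and Sox2 (0.99). The part of glial content in the P2ry1 difference was not tested.

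**Figure D3:**
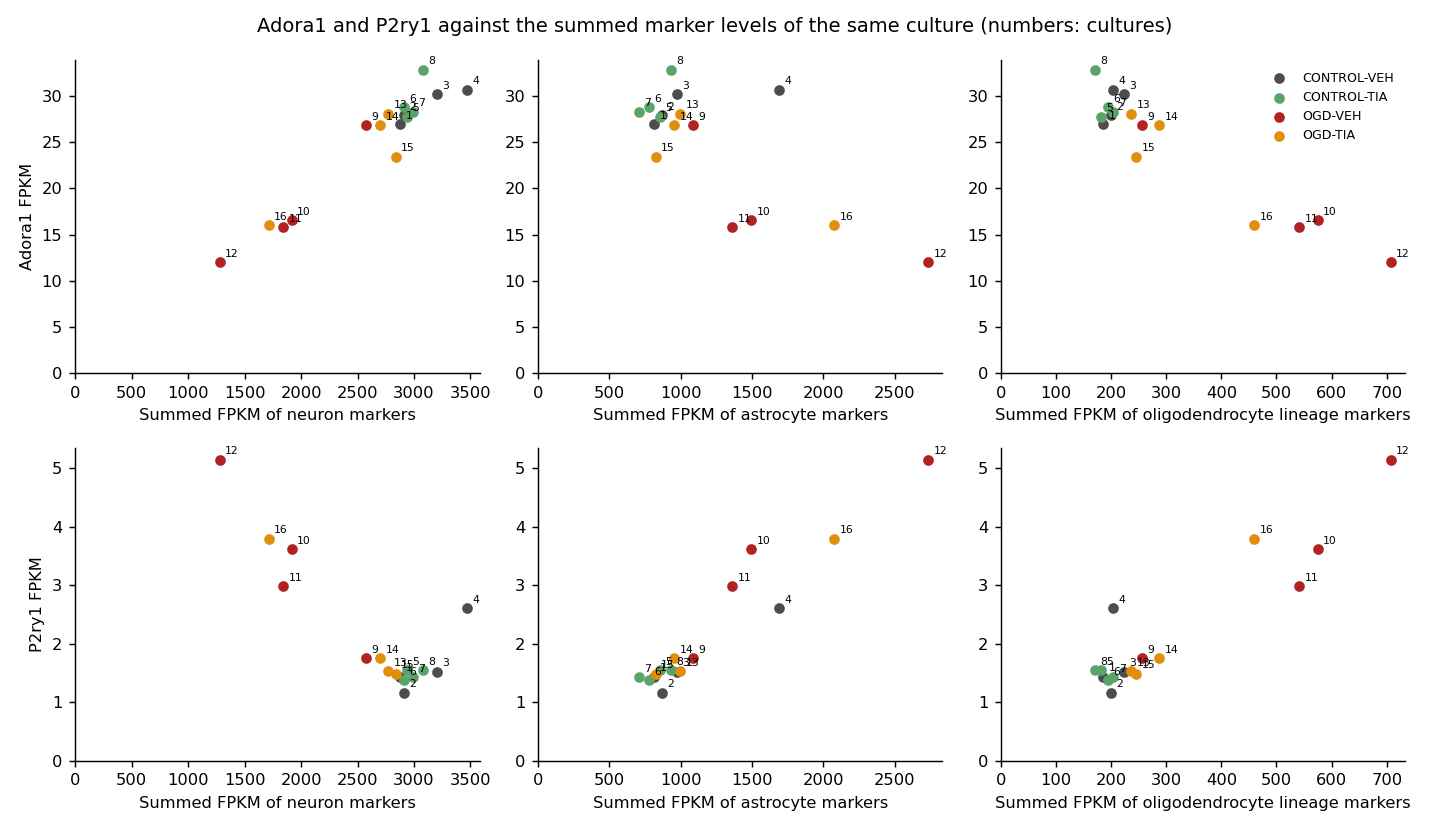
FPKM of Adora1 (upper row) and P2ry1 (lower row) against the summed FPKM of the neuron, astrocyte and oligodendrocyte lineage markers of the same culture (horizontal axes), all from 0, with 1 numbered point per culture coloured by group. OGD-VEH cultures 10 to 12 and OGD-TIA culture 16 have the lowest neuron sums (1281 to 1917 FPKM), the lowest Adora1 and the highest P2ry1.

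The P2ry1 window, chr3:61002535-61002784 on the plus strand, held 2 GCGTG and 2 GGGCGG and none of the other motifs. It had a GC content of 70.8%, against 64.4% in the Adora1 window shown. The window of the other Adora1 start, chr1:134234857-134235106, had 3 GCGTG and no GGGCGG, so GCGTG was found before a start of both genes.
P2ry1: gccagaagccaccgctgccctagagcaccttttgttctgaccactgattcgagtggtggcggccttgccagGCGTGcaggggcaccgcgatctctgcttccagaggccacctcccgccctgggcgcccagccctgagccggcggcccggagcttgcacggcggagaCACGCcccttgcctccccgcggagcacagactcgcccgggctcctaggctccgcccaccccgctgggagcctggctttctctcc

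P2ry14, the receptor for UDP-sugars (chr3:59113855-59153618, minus strand), was listed at 0 in all 8 control cultures, in OGD-VEH cultures 9 and 10 and in OGD-TIA cultures 14 and 15. It was listed at 0.005 FPKM in OGD-VEH cultures 11 and 12 and in OGD-TIA culture 16 and at 0.023 in culture 13. All of these values correspond to less than 1 estimated read, so no fold change is given.

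Entpd1 lies on the plus strand of chr19:40612366-40741602. Its levels were 3.06, 2.65, 2.21 and 3.48 FPKM in CONTROL-VEH, 3.01, 3.34, 4.48 and 3.46 in CONTROL-TIA, 2.31, 2.45, 4.48 and 7.03 in OGD-VEH, and 2.34, 3.502, 3.18 and 3.87 in OGD-TIA. OGD-VEH was the most spread group, with culture 12 above all others and cultures 9 and 10 within the controls. The log2 fold change between OGD-VEH and CONTROL-VEH was 0.37 (95% interval -0.44 to 1.18, adjusted p 0.483) and, averaged over both arms, 0.11 (95% interval -0.34 to 0.56, adjusted p 0.719). Without OGD-VEH 12 alone the averaged value was -0.04, and without all 4 cultures that stood apart -0.26 (SE 0.17). Entpd1-210, a noncoding model of 380 bases, held 35.0% of the sum and was at 0 in CONTROL-VEH 4, OGD-VEH 9 and OGD-TIA 16. Entpd1-201, which held 39.9%, was at 0.746, 0.769, 1.05 and 1.25 FPKM in CONTROL-VEH and 1.07, 1.81, 1.80 and 3.80 in OGD-VEH. Its averaged OGD difference was 0.60 (SE 0.27, adjusted p 0.192) in the isoform fit.

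Nt5e (chr9:88327197-88372092, plus strand) was at 0.296, 0.297, 0.209 and 0.266 FPKM in CONTROL-VEH and 0.319, 0.297, 0.398 and 0.275 in CONTROL-TIA. After OGD it was at 0.158, 0.228, 0.262 and 0.312 FPKM in OGD-VEH and 0.244, 0.174, 0.107 and 0.250 in OGD-TIA. The highest OGD-TIA culture, at 0.250, lay under the lowest CONTROL-TIA culture (exact permutation p = 0.0286, two-sided, the smallest possible), a pattern that 16.2% of all genes showed in this comparison, 6.7% in this direction. The log2 fold change was -0.55 (SE 0.25, adjusted p 0.406 in the fit without a filter), and OGD-VEH overlapped CONTROL-VEH. Groups of TIA and vehicle cultures overlapped for all 10 genes, where 2.07% of all genes did not overlap without OGD and 3.8% after it. A culture held a median of 23.5 Nt5e reads.

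Adk had the highest mean sum of the 10 genes in every group but CONTROL-TIA, and its sum was mostly 1 short model. The gene spans chr14:21052574-21448569 on the plus strand. Its summed FPKM was 53.9, 40.7, 40.7 and 57.0 in CONTROL-VEH, 16.9, 30.4, 51.7 and 16.9 in CONTROL-TIA, 41.2, 54.9, 65.4 and 83.2 in OGD-VEH, and 42.4, 50.7, 50.3 and 75.9 in OGD-TIA. CONTROL-TIA held the lowest 3 cultures, and its culture 7 was at the CONTROL-VEH level. The averaged OGD difference was 0.68 (SE 0.23, adjusted p 0.0346, limma), with 1.04 in the TIA arm (SE 0.37, adjusted p 0.197) and 0.32 in the vehicle arm (SE 0.22, adjusted p 0.336), and the interaction was 0.73 (95% interval -0.25 to 1.70, adjusted p 0.723). TIA without OGD gave -0.87 (SE 0.35, unadjusted p 0.0385, adjusted p 0.999).

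Adk-208, a model of 392 bases, held 66.8% of the Adk sum and ranged from 0.008 to 61.9 FPKM. It was at 0.253, 18.5, 39.2 and 0.008 FPKM in CONTROL-TIA cultures 5 to 8, against 25.1 to 39.8 in CONTROL-VEH. The full-length forms were steadier: Adk-201, with 361 codons, was at 5.11 to 12.5 FPKM and Adk-207, with 345 codons, at 3.32 to 14.6. Their averaged OGD differences were 0.21 (SE 0.14, adjusted p 0.412) and -0.24 (SE 0.27, adjusted p 0.632). With isoforms weighted by transcript length, so that short models counted less, the averaged OGD difference of Adk was 0.29 with an adjusted p of 0.094. In the summed values the limma adjusted p was also over 0.05 without cultures 2, 3, 5, 8, 10, 11, 12 or 16 (0.0503 to 0.073). Without OGD-VEH 10 to 12 and OGD-TIA 16 together the difference was 0.34 (SE 0.31).

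**Figure D4:**
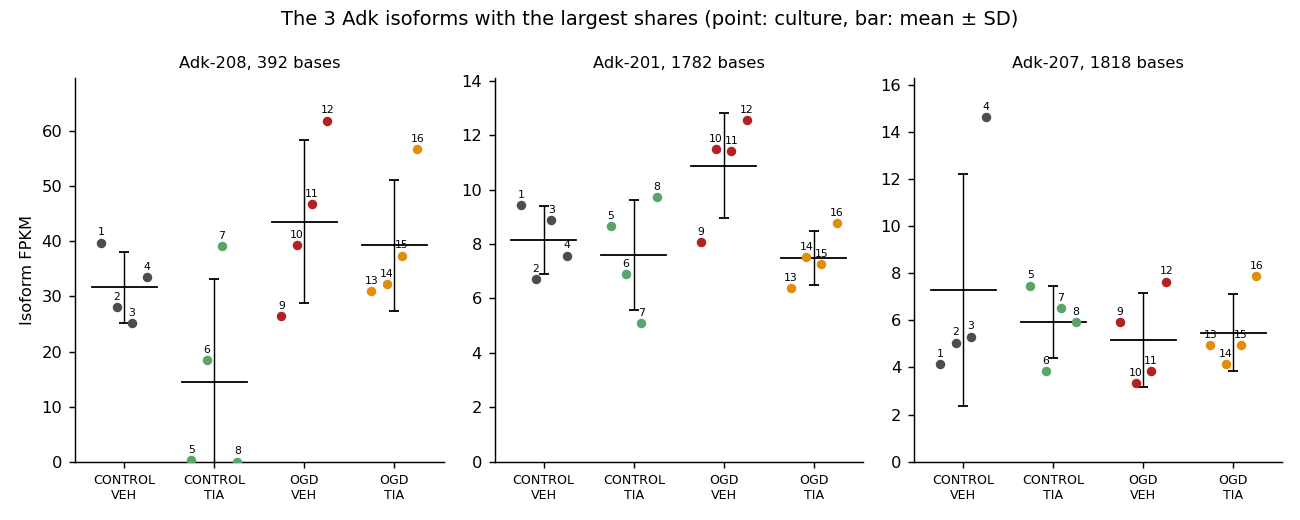
FPKM (vertical axes, from 0) of the 3 Adk isoforms with the largest shares, by culture and group, with group mean and SD (cut at 0). Adk-208 is near 0 in CONTROL-TIA cultures 5 and 8, where Adk-201 and Adk-207 are at 5.92 to 9.72 FPKM.

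Adk-201 and Adk-207 begin at 2 separate starts, known to give a long form of the kinase found in the nucleus and a short form found in the cytoplasm, and both windows are shown for that reason. The window of the long form, chr14:21052324-21052573 on the plus strand, had a GC content of 58.8%, 1 TGACG and 2 GGGCGG. The window of the short form, chr14:21075902-21076151, lies within the long form's gene, had a GC content of 75.2%, 1 GCGTG and 3 GGGCGG.
Adk long form: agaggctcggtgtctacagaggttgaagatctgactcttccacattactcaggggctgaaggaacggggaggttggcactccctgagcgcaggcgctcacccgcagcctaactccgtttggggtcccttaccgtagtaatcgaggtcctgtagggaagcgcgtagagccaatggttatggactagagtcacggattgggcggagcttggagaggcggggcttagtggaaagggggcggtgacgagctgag
Adk short form: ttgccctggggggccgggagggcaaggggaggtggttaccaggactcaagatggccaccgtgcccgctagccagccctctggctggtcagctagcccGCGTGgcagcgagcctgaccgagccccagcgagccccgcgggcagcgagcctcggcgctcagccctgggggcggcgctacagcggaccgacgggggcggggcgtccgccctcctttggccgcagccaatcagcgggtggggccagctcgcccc

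Other genes of the pathway were read from lists of 12 further receptors, 35 enzymes, and 12 transporters and ATP release channels. For OGD without TIA, 4.08% of all genes were called and 8.44% had an adjusted p of at most 0.05 in limma. Of the lists, 1 of 3 tested receptors and 1 of 28 enzymes were called higher. Of 8 transport and release genes, 1 had an adjusted p of at most 0.05, lower. The receptor, P2ry2, passed the filter only through the OGD cultures where it was high. Its count is therefore a description, here and in the averaged comparison. With OGD averaged over both arms, the counts at an adjusted p of at most 0.05 were 1 higher of 3 receptors, 3 higher and 5 lower of 28 enzymes, and 2 lower of 8 transport and release genes, against 18.8% higher and 13.7% lower of all genes. The averaged median log2 fold changes of the 3 lists were 0.46, -0.04 and 0.03, against 0.08 for all genes. Without the 4 cultures that stood apart these medians were -0.23, -0.13 and 0.08, against 0.02, with fewer receptors and transport genes tested. In the other 4 comparisons no gene of the lists passed, as for all genes.

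P2ry2, the receptor for ATP and UTP, was the receptor called higher. It was at 0.343, 0.366, 0.240 and 0.282 FPKM in CONTROL-VEH, 0.626, 0.259, 0.219 and 0.273 in CONTROL-TIA, 0.506, 2.54, 2.54 and 3.36 in OGD-VEH, and 0.671, 0.791, 1.15 and 2.43 in OGD-TIA. Every OGD culture was above the control cultures of its arm. Among all genes, 22.7% did not overlap in the vehicle arm and 16.2% in the TIA arm. The P2ry2 margin in the TIA arm was small, 0.671 against 0.626 FPKM. The log2 fold change was 2.27 between OGD-VEH and CONTROL-VEH (SE 0.53, adjusted p 0.0439, limma) and 1.90 averaged over both arms (SE 0.36, adjusted p 0.00272). CONTROL-VEH averaged 0.308 FPKM and OGD-VEH 2.23, so P2ry2 passed the minimum of 0.5 only through the OGD cultures. Its call and adjusted p are therefore a description. Without OGD-VEH 10 to 12 and OGD-TIA 16 P2ry2 fell under that minimum, and in the fit without a minimum the averaged value was 0.88 (SE 0.28).

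Pnp, purine nucleoside phosphorylase, which splits inosine made from adenosine, rose from 2.84, 4.32, 3.16 and 4.53 FPKM in CONTROL-VEH to 10.8, 17.4, 33.7 and 50.3 in OGD-VEH (log2 fold change 2.67, SE 0.45, adjusted p 0.0335, limma). It was at 12.5, 18.0, 1.51 and 4.70 FPKM in CONTROL-TIA and 15.8, 1.17, 16.2 and 5.90 in OGD-TIA, so the TIA groups overlapped, and the averaged OGD difference was 1.36 (SE 0.58, adjusted p 0.0874). With culture 9 as the sole OGD-VEH culture the Pnp difference was 1.54 (SE 0.32). Pnp sits beside a close copy, and the split of reads between them is uncertain.

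Among the genes that fell in the averaged OGD comparison, Ak5, an adenylate kinase of neurons, had a log2 fold change of -1.21 (SE 0.29, adjusted p 0.00786) and Slc28a2, a sodium-coupled carrier of purine nucleosides, of -2.03 (SE 0.45, adjusted p 0.00577). Ada, adenosine deaminase, had -0.50 (SE 0.11, adjusted p 0.00439), Panx2, a pannexin, -0.48 (adjusted p 0.0223), and Hprt, which salvages hypoxanthine, -0.32 (adjusted p 0.0197). Entpd3 and Entpd4, relatives of Entpd1, had -0.78 (adjusted p 0.0179) and -0.53 (adjusted p 0.0161). Enpp2, autotaxin, rose by 0.70 (adjusted p 0.0232) and the nucleotidase Nt5c by 0.31 (adjusted p 0.0411). Panx2 was the gene of its list that was lower between OGD-VEH and CONTROL-VEH, by -0.87 (SE 0.20, adjusted p 0.0437). Slc28a2 averaged 0.237 FPKM in OGD-VEH and 0.302 in OGD-TIA, so it passed the minimum only through the control cultures, and its values are a description. Without the 4 cultures that stood apart the averaged values were -0.54 for Ak5, -1.33 for Slc28a2, -0.52 for Ada and -0.23 for Panx2. They were -0.14 for Hprt, -0.26 for Entpd3, -0.20 for Entpd4, 0.40 for Enpp2 and 0.44 for Nt5c.

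**Figure D5:**
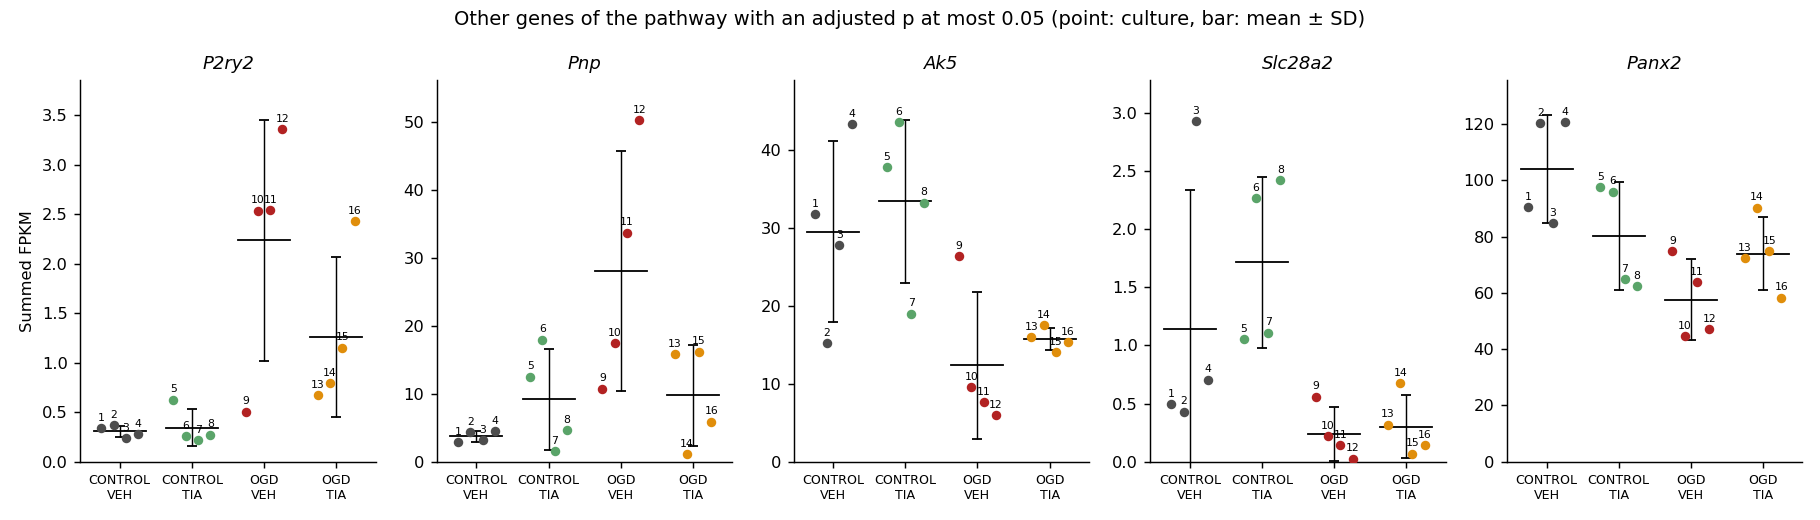
Summed FPKM (vertical axes, from 0) of P2ry2, Pnp, Ak5, Slc28a2 and Panx2 by culture and group, with group mean and SD (cut at 0). P2ry2 is at 2.43 to 3.36 FPKM in OGD-VEH cultures 10 to 12 and OGD-TIA culture 16 and at most at 0.626 in the control cultures.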

How the data were processed

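RNA of 16 cultures was sequenced from stranded poly(A) libraries. The authors aligned reads to GRCm38 with STAR, quantified isoforms with eXpress and deposited FPKM per isoform, scaled by the trimmed mean of M values; tools are as the methods and submitters' notes name them. Here isoform FPKM were summed per gene, and log2(FPKM + 0.1) was fitted with limma 3.58.1 (R 4.3.3, variance trend) on genes averaging 0.5 FPKM or more in the cultures fitted, with Benjamini-Hochberg adjustment. Fold changes on this scale understate changes of low genes. Genes under the minimum were read from the fit without it. FPKM are not counts, so no count model was used. Reads per culture were estimated from the FPKM steps of 17633 single-isoform genes. Exact permutation tests used all 70 assignments of 4 against 4 cultures. The fit was run on simulated data with the spread of the control cultures and larger changes than those of the 10 genes. That simulation therefore does not cover the OGD comparisons. Alternatives changed the pseudocount, minimum, scaling, isoform weighting, array weights and cultures. The 10 genes and all gene lists were chosen with earlier results of these data known. The text names all 10 genes, and other pathway genes with an adjusted p of at most 0.05, except that some items are not reported here. The 74 lines without an identifier were left out. Endothelial markers summed to 0.528 to 1.72 FPKM and mural and fibroblast markers to 11.9 to 21.7 FPKM over all cultures.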

Additional observations from a re-analysis of the deposited data

Results flagged for a closer look

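In 3 of 38 groups of 4 cultures tested, 1 culture lay far from the others by Dixon's test, where chance at 1 in 20 gives 1.9. Adora2a was at 2.06 FPKM in CONTROL-TIA culture 5, against 0.850 to 1.05 in the other 3 cultures. P2rx7 was at 1.10 FPKM in the same culture, against 0.165 to 0.281 in the others. P2ry1 was at 3.79 FPKM in OGD-TIA culture 16, against 1.48 to 1.75 in the others, and this culture also had the lowest neuron marker sum of its group, 1715 FPKM. The part of cell content in these values was not tested.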

How the results depend on the processing

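No paired analysis was possible because the labels number the cultures from 1 to 16 across the groups and share none between them. For OGD without TIA, 2 of the 10 genes, P2rx7 and P2ry1, were called with array quality weights, against 0 of the 10 in the reported fit. Under these weights 11.8% of all genes were called. Leaving out 1 culture gave 0 to 1, with P2ry1 called only without OGD-VEH 9, the OGD-VEH culture nearest the controls. In the averaged OGD comparison leaving out 1 culture gave 0 to 1, with P2rx7 called without CONTROL-VEH 1. The share of all genes called in the fits without 1 culture is not given, so nothing is read from these counts. In the fits that called P2rx7 it passed the filter only through OGD-VEH, where it was high, so its calls are a description. Adora1 between OGD-VEH and CONTROL-VEH had an adjusted p of 0.0364 with isoforms weighted by length, 0.00379 with array weights and 0.0184 with all 16 cultures in 1 fit. In the averaged comparison P2ry1 had 0.091 and Adk 0.0673 with no filter, and P2ry1 0.0567 with median-ratio scaling. Leaving out OGD-VEH 10 to 12 and OGD-TIA 16 together was chosen after seeing the data, and turned the averaged difference of Entpd1 to -0.26, and for OGD-VEH against CONTROL-VEH Adora2b to -0.0078, P2rx4 to -0.056, Entpd1 to -0.27 and Adk to -0.20.

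With median-ratio scaling Adora2b in OGD-VEH against CONTROL-VEH was -0.0048 and P2rx4 in OGD-TIA against OGD-VEH 0.038. With array weights Adora2b was -0.17 in the former, P2ry1 0.017 in CONTROL-TIA against CONTROL-VEH, and the interactions of Adora2a and P2rx4 0.12 and -0.086. With length weighting Entpd1 was 0.16 in OGD-TIA against CONTROL-TIA and the P2rx4 interaction -0.16. Ranges over fits without 1 culture that crossed 0 were, for OGD-VEH against CONTROL-VEH, Adora2a -0.25 to 0.0073, Adora2b -0.14 to 0.26 and Nt5e -0.22 to 0.0023, and for OGD-TIA against CONTROL-TIA, Adora2a -0.37 to 0.022. For CONTROL-TIA against CONTROL-VEH they were Adora1 -0.031 to 0.051, Adora2a -0.36 to 0.073, P2rx4 -0.40 to 0.14, P2rx7 -0.20 to 0.62 and P2ry1 -0.26 to 0.10. For OGD-TIA against OGD-VEH they were P2rx4 -0.22 to 0.12, Entpd1 -0.42 to 0.10 and Adk -0.32 to 0.016. For the interaction they were Adora2a -0.24 to 0.19, Adora2b -0.051 to 0.35 and P2rx4 -0.15 to 0.39, and for averaged OGD Entpd1 -0.045 to 0.22. The causes were not tested. Adora2b, P2rx7 and Nt5e rested on few reads.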
